A study of Mus musculus with 8 samples.

Results

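The genes of 9 enzymes and helper proteins that turn arachidonic acid into leukotrienes, lipoxygenase products and prostaglandins were followed through mouse bone marrow basophils and their pre-Baso precursors. They were chosen by name (Pla2g4a, Alox5, Alox5ap, Lta4h, Ltc4s, Alox15, Ptgs1, Ptgs2 and Hpgds) among 55487 genes in the deposited tables, and the level of each is the sum over its annotated transcripts. Of the 9, 5 were expressed highly enough to be tested, and 4 (Ltc4s, Ptgs1, Ptgs2 and Hpgds) never exceeded 1.18 TPM, the length-scaled relative abundance in which the levels are given.

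Phospholipase A2 releases arachidonic acid from membranes. 5-Lipoxygenase, helped by its activating protein, makes leukotriene A4 from it, which leukotriene A4 hydrolase turns into the neutrophil attractant leukotriene B4 and leukotriene C4 synthase into the cysteinyl leukotrienes. Cyclooxygenases lead instead to prostaglandins, and basophils and mast cells are best known in allergy for releasing such lipids together with histamine.

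RNA was sequenced from pre-Baso and basophils sorted from bone marrow of C57BL/6J mice, with 2 libraries in each of 4 groups. Both populations were sorted as lineage-negative, CD34-negative, ckit-negative and CD200R3-positive cells. They were separated by staining with MAR1, an antibody to the alpha chain of the IgE receptor, which was high on pre-Baso and intermediate on basophils. Control libraries (ctrl) came from littermates labelled wild type, and the others from Nfil3-depleted mice (floxed out). NFIL3 is a transcription factor. The labels used here name no Cre driver, no animal age and no number of pooled mice, and they call the libraries biological duplicates.

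The libraries held 271.7 to 398.0 megabases of sequence assigned to transcripts, and Pearson correlations of log2(TPM + 1) were 0.962 to 0.979 within groups and 0.896 to 0.974 between groups. Nfil3 itself stood at 6.61 and 7.65 TPM in ctrl pre-Baso and at 20.5 and 22.5 TPM in ctrl basophils. It was listed at 0 and 0.624 TPM in floxed out pre-Baso and at 0.853 and 1.32 TPM in floxed out basophils. Mcpt8, a basophil protease, was at 969 to 7888 TPM in ctrl libraries and at 1.98 to 6.04 TPM in floxed out libraries. The basophil protease Prss34 was at 18974 to 25020 TPM in pre-Baso and 2667 to 9494 TPM in basophils, over both genotypes. All 11 genes of the basophil marker list were expressed highly enough to be tested, and basophils share 2 of the 9 mast cell markers, Cpa3 and Hdc. Of the other 7 mast cell markers, Mcpt4 and Mrgprb2 were listed at 0 in every library, and Kit, Tpsb2, Mrgprb1 and Mitf stayed at or under 0.641 TPM. Cma1 was at 2.41 and 2.001 TPM in floxed out pre-Baso, 1.17 and 0.646 TPM in floxed out basophils and 0 to 0.715 TPM in ctrl libraries. In bulk RNA, fewer cells of a type and less RNA per cell cannot be told apart.

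The 5-lipoxygenase activating protein gene dominated the group. Alox5ap (chr5:149264767-149288153, plus strand, mm10) supplied 75.9% to 84.9% of the summed TPM of the 9 genes in each library, and its mean level exceeded that of 99.7% of the 9017 protein-coding genes tested. Alox5 exceeded 94.9% of them, Alox15 93.4%, Lta4h 89.6% and Pla2g4a 37.0%. The order Alox5ap, Alox5, Alox15, Lta4h and Pla2g4a held for the means of both pre-Baso groups, where the libraries of Alox15 and Lta4h overlapped. In ctrl basophils Alox15 stood above Alox5 with no overlap, and in floxed out basophils these genes had overlapping libraries. TPM is scaled by transcript length, so these orders compare levels between genes.

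**Figure D1:**
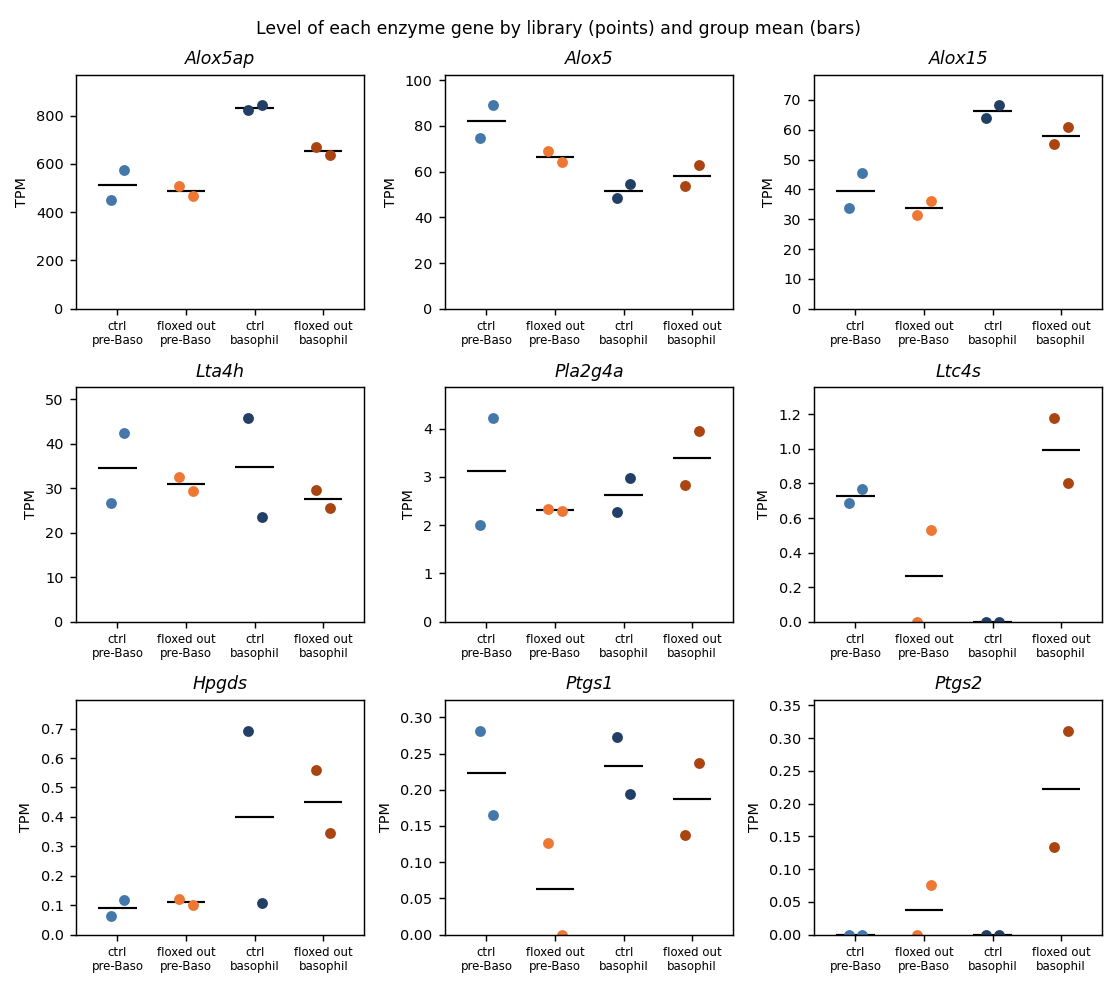
TPM of each of the 9 genes (vertical axis, linear, from 0) in the 4 groups (horizontal axis), with 1 point per library and a bar at the mean of 2 libraries. Alox5ap and Alox15 are higher in all 4 basophil libraries than in all 4 pre-Baso libraries, Alox5 is lower in them, and the last 4 panels stay at or under 1.18 TPM.

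The comparison between the populations asks how transcript levels differ between pre-Baso and basophils within each genotype. In control cells, Alox5ap and Alox15 were higher in basophils and Alox5 was lower, so the enzyme and its activating protein moved in opposite directions. These were 3 of the 5 tested genes, with 2 called higher (12.6% of all 12511 tested genes were called higher) and 1 called lower (10.0% of all). A gene is called when its adjusted p is under 0.05 in limma, fitted to log2(TPM + 1) over all 8 libraries with Benjamini-Hochberg adjustment over all genes tested. In floxed out cells, 1 of the 5 was called, Alox15, which was higher (6.79% of all tested genes were called higher and 4.11% lower). The same libraries enter the comparison of genotypes further on.

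Alox5ap encodes FLAP, the nuclear membrane protein that presents arachidonic acid to 5-lipoxygenase. It was at 449.9 and 575 TPM in ctrl pre-Baso and at 823 and 843 TPM in ctrl basophils. The floxed out pre-Baso libraries gave 506 and 467 TPM and the floxed out basophil libraries 668 and 636 TPM. Every basophil library was above every pre-Baso library. In ctrl cells Alox5ap rose by 0.71 ± 0.13 on the log2 scale (SE, adjusted p = 0.00738, limma), from a mean of 512 ± 88.1 to 833 ± 14.2 TPM (SD, n = 2). This call held in each of 19 alternative fits. In floxed out cells the log2 difference was 0.42 ± 0.13 (SE, adjusted p = 0.0778, 95% interval 0.12 to 0.73), from 487 ± 27.8 to 652 ± 22.6 TPM, and it missed the threshold. It passed in 6 of the 19 alternatives, among them assigned bases in place of TPM (adjusted p = 0.0234, limma). Of these 6, 2 left out a ctrl pre-Baso library, which does not enter this difference and changes only the shared spread. Leaving out 1 library at a time gave changes of 0.36 to 0.48. Nearly all of the signal (99.6% to 99.9% per library) came from 1 protein-coding transcript, which has 5 exons. The antisense gene Gm19719, at 1.17 to 2.69 TPM, and the ribosomal RNA gene n-R5s180, at 1.32 to 6.01 TPM, lie across parts of Alox5ap, and without strand their reads cannot be told apart from those of Alox5ap.

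Alox5, the 5-lipoxygenase itself (chr6:116410077-116461178, minus strand), was at 74.9 and 89.0 TPM in ctrl pre-Baso and at 48.3 and 54.6 TPM in ctrl basophils. The floxed out pre-Baso libraries gave 68.8 and 64.0 TPM and the floxed out basophil libraries 53.8 and 62.7 TPM. Pre-Baso and basophil libraries did not overlap in either genotype, and the gap was narrow in floxed out cells. In ctrl cells Alox5 fell by 0.66 on the log2 scale (SE 0.16, adjusted p = 0.0194, limma), from 81.9 ± 10.03 to 51.5 ± 4.46 TPM (SD, n = 2). Without ctrl pre-Baso replicate 2 the change was -0.53 (adjusted p = 0.0829) and without ctrl basophil replicate 1 it was -0.57 (adjusted p = 0.115). With no filter on low values or with the compared groups only, the ctrl change kept its size and its call was lost (adjusted p = 0.0529 and 0.0567). The floxed out change was -0.19 ± 0.16 (SE, adjusted p = 0.473, 95% interval -0.55 to 0.17). The difference between the genotypes in this change was 0.47 ± 0.22 (SE, adjusted p = 0.918, 95% interval -0.04 to 0.98), so Alox5 was not shown to change less in floxed out cells.

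The transcript of the activating protein was more abundant relative to that of its enzyme in basophils. The ratio of their TPM was 6.01 to 7.36 over the 4 pre-Baso libraries. It was 17.0 and 15.4 in ctrl basophils and 12.4 and 10.2 in floxed out basophils. The ratio of Alox15 to Alox5 was 0.45 to 0.56 in pre-Baso, 1.32 and 1.25 in ctrl basophils, and 1.03 and 0.97 in floxed out basophils. For both ratios the 3 sets of libraries did not overlap, and the ratios carry no test of their own. They use TPM summed over all transcripts, so a retained-intron transcript of Alox5 (4.42% to 50.8% of its TPM per library) enters them. This split is stated for these sums and not for protein-coding transcripts alone.

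Alox15 adds oxygen to arachidonic acid at other positions than 5-lipoxygenase and is abundant in eosinophils and some macrophages. Its libraries (chr11:70344152-70352031, minus strand) read 33.7 and 45.4 TPM in ctrl pre-Baso and 64.0 and 68.3 TPM in ctrl basophils. They read 31.3 and 36.1 TPM in floxed out pre-Baso and 55.3 and 60.8 TPM in floxed out basophils. Basophil libraries again stood above all pre-Baso libraries, and the size of the difference was close in both genotypes. The rise was 0.74 ± 0.18 on the log2 scale in ctrl cells (SE, adjusted p = 0.0192, limma) and 0.77 ± 0.18 in floxed out cells (SE, adjusted p = 0.0313, limma). The difference between these changes was 0.03, with a 95% interval from -0.54 to 0.60 (adjusted p = 0.997). The ctrl call was lost without ctrl pre-Baso replicate 1 (0.53, adjusted p = 0.0884), ctrl basophil replicate 1 (0.79, adjusted p = 0.0654) or ctrl basophil replicate 2 (0.70, adjusted p = 0.0860). The floxed out call was lost without any of the 4 floxed out libraries, with changes of 0.67 to 0.87 and adjusted p of 0.0713 to 0.182. With no filter on low values or with the compared groups only, neither call passed (adjusted p of 0.0511 to 0.0970). A single protein-coding transcript held 99.1% to 100% of Alox15 per library.

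**Figure D2:**
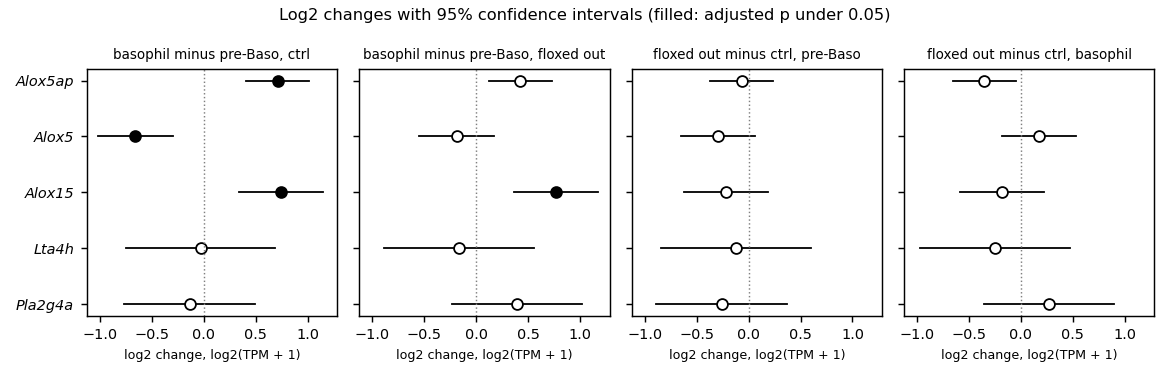
Log2 change (horizontal axis, log2(TPM + 1) scale) of the 5 tested genes with 95% confidence intervals, basophil minus pre-Baso in each genotype (left) and floxed out minus ctrl in each population (right); filled points have an adjusted p under 0.05. In ctrl cells Alox5ap (0.71) and Alox15 (0.74) lie right of 0 and Alox5 (-0.66) left of it, and no point is filled in the genotype panels.

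Lta4h, the hydrolase that makes leukotriene B4 (chr10:93453411-93484875, plus strand), was at 26.6 and 42.5 TPM in ctrl pre-Baso and at 45.8 and 23.6 TPM in ctrl basophils. The floxed out libraries gave 32.5 and 29.5 TPM in pre-Baso and 29.7 and 25.5 TPM in basophils. All groups overlapped in the comparison of populations. The log2 change was -0.03 in ctrl cells (95% interval -0.75 to 0.69, adjusted p = 0.956) and -0.17 in floxed out cells (95% interval -0.89 to 0.56, adjusted p = 0.779).

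Part of the spread of Lta4h between ctrl replicates sat in a short non-coding transcript. Its main protein-coding transcript gave 26.1% to 74.9% of the gene's TPM. A processed transcript of 540 bases was at 9.90 TPM in ctrl pre-Baso replicate 2 and 16.3 TPM in ctrl basophil replicate 1, and was listed at 0 in the other 6 libraries. These are the libraries with the highest Lta4h sums. Counted over protein-coding transcripts only, Lta4h was at 19.7 and 25.9 TPM in ctrl pre-Baso and at 11.97 and 14.7 TPM in ctrl basophils, which do not overlap (log2 change -0.73 ± 0.25, SE, adjusted p = 0.0865). On the scale of assigned bases, which does not depend on how reads are shared among transcripts of a gene, it was at 83.0 and 102.4 bases per megabase of all assigned sequence in ctrl pre-Baso and 79.5 and 63.2 in ctrl basophils (log2 change -0.38 ± 0.15, SE, adjusted p = 0.107). Neither alternative, both added after the values were seen, passed the threshold.

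Alox5 also divided its TPM between transcripts unevenly. Its protein-coding transcript held 46.0% to 93.4% per library and 1 retained-intron transcript 4.42% to 50.8%. The retained-intron transcript stood at 26.7 TPM in floxed out pre-Baso replicate 2, 24.6 TPM in ctrl basophil replicate 1 and 19.4 TPM in floxed out basophil replicate 2, and at 2.38 to 8.36 TPM in the other 5 libraries. The high libraries come from 3 different groups. With protein-coding transcripts only, the ctrl change of Alox5 was -1.11 ± 0.42 (SE, adjusted p = 0.111), no longer called. By assigned bases, where ctrl pre-Baso gave 387 and 400.3 bases per megabase and ctrl basophils 247 and 251.3, it was -0.66 ± 0.11 (SE, adjusted p = 0.00317) and was called.

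**Figure D3:**
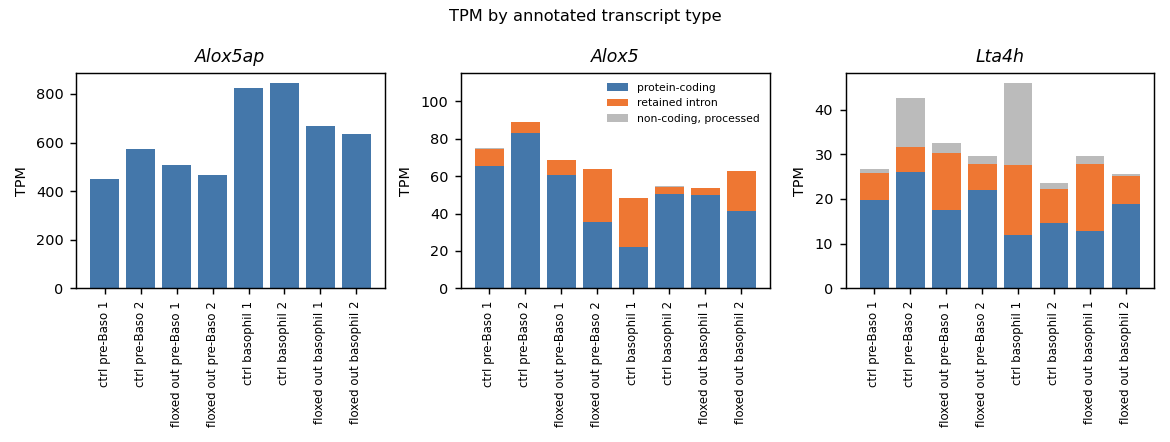
TPM (vertical axis, from 0) of Alox5ap, Alox5 and Lta4h in each library (horizontal axis), stacked by annotated transcript type. Alox5ap is almost wholly protein-coding, the retained-intron share of Alox5 is high in 3 libraries of 3 groups, and the processed non-coding transcripts of Lta4h stand out in ctrl pre-Baso 2 and ctrl basophil 1.

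The 250 bases before the start are shown for Alox5, which was called lower in ctrl basophils, and for Lta4h, which was not called, so that the start regions of neighbouring steps of the pathway can be compared. Both are from RefSeq on GRCm38.p6 and read 5′ to 3′ on the gene's strand, with capitals marking a motif match. The Alox5 window is chr6:116461179-116461428 on the minus strand, and the Lta4h window is chr10:93453146-93453395 on the plus strand.
Alox5: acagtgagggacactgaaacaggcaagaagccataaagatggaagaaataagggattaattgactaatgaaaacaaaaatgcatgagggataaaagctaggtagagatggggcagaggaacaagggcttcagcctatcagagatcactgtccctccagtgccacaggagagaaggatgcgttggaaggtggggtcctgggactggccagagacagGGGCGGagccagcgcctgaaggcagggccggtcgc
Lta4h: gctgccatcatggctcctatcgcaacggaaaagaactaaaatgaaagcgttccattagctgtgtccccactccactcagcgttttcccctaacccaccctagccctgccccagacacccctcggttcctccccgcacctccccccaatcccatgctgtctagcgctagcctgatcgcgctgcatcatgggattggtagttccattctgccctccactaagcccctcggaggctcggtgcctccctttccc

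The Alox5 window holds 1 match to the SP/KLF letters GGGCGG, at -35 to -30 from the start, a pattern found in 32.7% of 32851 windows of the same length. The Lta4h window holds no match to any pattern searched, and its GC content is 58.8% against 52.8% for Alox5 and a median of 52.4% over all windows. Besides these SP/KLF letters, 5 kinds of pattern were searched on both strands. They were the letters AGATAA of GATA factors, the letters TTACGTAA or TTATGTAA of NFIL3 and related factors, the letters TTGCNNAA of C/EBP factors, the letters TTCNNNGAA of STAT factors and the letters TGTGGT of RUNX factors. Windows were on hand for 7 of the 9 genes. None of the 7 held the NFIL3 letters, which 0.931% of all windows hold. Matches in the windows of Ltc4s, Ptgs2 and Hpgds were to RUNX, C/EBP or SP/KLF letters, and none overlapped another. A match or its lack describes these letters and not binding.

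Pla2g4a, the cytosolic phospholipase A2 that frees arachidonic acid, was the lowest of the tested genes. It was at 2.01 and 4.22 TPM in ctrl pre-Baso and 2.27 and 2.98 TPM in ctrl basophils. In floxed out cells it was at 2.34 and 2.29 TPM in pre-Baso and 2.84 and 3.94 TPM in basophils. The ctrl groups overlapped and the floxed out groups did not. The log2 change was -0.13 in ctrl cells (95% interval -0.76 to 0.49, adjusted p = 0.765) and 0.39 in floxed out cells (95% interval -0.23 to 1.02, adjusted p = 0.388). Between 2.895 and 7.07 kilobases of sequence per library lie behind these levels, against 329 to 516 kilobases for Alox5ap.

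The remaining 4 genes were at the edge of what these libraries show. Ltc4s, the synthase of the cysteinyl leukotrienes, was at 0.69 and 0.77 TPM in ctrl pre-Baso, listed at 0 in both ctrl basophil libraries, at 0 and 0.53 TPM in floxed out pre-Baso, and at 1.18 and 0.80 TPM in floxed out basophils. At most 0.427 kilobases of sequence were assigned to it in a library. In ctrl pre-Baso replicate 1 all of it was assigned to a processed non-coding transcript, and the antisense gene Gm26542, at 0 to 0.815 TPM, overlaps Ltc4s. Its pre-Baso and basophil libraries did not overlap in either genotype, lower in ctrl basophils than in ctrl pre-Baso and higher in floxed out basophils than in floxed out pre-Baso. It reached 1 TPM in only 1 library and was not tested.

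The genes of the prostaglandin branch were also low. Ptgs1 and Ptgs2, the constitutive and inducible cyclooxygenases, were at 0 to 0.281 TPM and 0 to 0.311 TPM over the 8 libraries. Ptgs2 was listed at 0 in 5 libraries, including all 4 ctrl libraries, and was at 0.13 and 0.31 TPM in floxed out basophils. Hpgds, the haematopoietic prostaglandin D synthase, was at 0.06 to 0.12 TPM in pre-Baso and at 0.69 and 0.11 TPM in ctrl basophils and 0.56 and 0.34 TPM in floxed out basophils. Its coding transcript reached 0.317 TPM at most, and the rest, 64.2% of its mean TPM, was on a retained-intron transcript. Both floxed out basophil libraries of Hpgds stood above both floxed out pre-Baso libraries, and its ctrl groups overlapped. These genes were not tested, and at most 1.155 kilobases of sequence per library were assigned to any of them.

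The comparison of genotypes asks whether these genes differ between floxed out and ctrl cells within each population. Mcpt8 differed in it as well, with log2 differences of -10.2 in pre-Baso and -8.45 in basophils. Loss of Nfil3 and loss of Mcpt8 come together in these libraries, and their parts in a difference cannot be told apart. None of the 5 tested genes was called in pre-Baso (0.0639% of all tested genes were called), in basophils (0.0560% of all) or in the mean over both populations (0.0879% of all). At an unadjusted p under 0.05, limma counted 548, 1065 and 931 of the 12511 tested genes in these contrasts, and 1 of the 5, Alox5ap in basophils.

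Alox5ap differed between the genotypes by -0.35 ± 0.13 in basophils (SE, adjusted p = 0.493, limma), with both floxed out libraries below both ctrl libraries. In pre-Baso its libraries overlapped and the difference was -0.06 (95% interval -0.37 to 0.24, adjusted p = 1). Alox5 showed the reverse layout, with floxed out libraries below ctrl libraries in pre-Baso (-0.29, 95% interval -0.65 to 0.06, adjusted p = 1) and overlapping libraries in basophils (0.17, 95% interval -0.19 to 0.53, adjusted p = 0.833). Alox15 differed by -0.21 in pre-Baso (95% interval -0.62 to 0.19), where its libraries overlapped. In basophils it differed by -0.19 (95% interval -0.59 to 0.22), with both floxed out libraries below both ctrl libraries. For Lta4h the intervals ran from -0.84 to 0.60 in pre-Baso and from -0.97 to 0.47 in basophils, and for Pla2g4a from -0.89 to 0.37 and from -0.36 to 0.90. All of these intervals hold differences of either sign. The interval of Alox5ap in basophils, not adjusted for the number of genes tested, ran from -0.66 to -0.05.

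The difference of the genotype effect between basophils and pre-Baso was called for 0 of the 5 genes and for 0 of all tested genes in limma (background 0%), with 689 genes at an unadjusted p under 0.05. None of the 5 was among these 689.

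Markers of other cells also differed between the populations and are given beside the changes above, since neutrophils, monocytes and eosinophils make several of these enzymes too. The summed TPM of the 10 neutrophil markers was 712 to 816 in ctrl pre-Baso, 832 to 1143 in floxed out pre-Baso, 1347 to 2353 in ctrl basophils and 1271 to 2079 in floxed out basophils. Of these 10, 7 were called higher in ctrl basophils and 4 in floxed out basophils (12.6% and 6.79% of all tested genes). The highest, S100a8 and S100a9, were at 433 to 803 TPM and 394 to 731 TPM in basophil libraries. The sum of the 12 monocyte and macrophage markers was 153 to 248.6 TPM in pre-Baso and 324 to 877 TPM in basophils. Lyz2 was at 679 TPM and Ly6c2 at 45.2 TPM at most. Of the 9 tested genes of this list, 4 were called higher in ctrl basophils (12.6% of all tested genes). In floxed out basophils 1 was called higher (6.79% of all). The part of neutrophils and monocytes in the changes of Alox5ap, Alox5 and Alox15 was not tested. In ctrl basophils the neutrophil sums were 2353 and 1347 TPM with Alox5ap at 823 and 843 TPM, and in ctrl pre-Baso they were 816 and 712 TPM with Alox5ap at 449.9 and 575 TPM. In floxed out basophils they were 2079 and 1271 TPM with Alox5ap at 668 and 636 TPM, and in floxed out pre-Baso 1143 and 832 TPM with Alox5ap at 506 and 467 TPM. Between the 2 libraries of a group, the one with the higher neutrophil sum had the higher Alox5ap in both floxed out groups. It had the lower Alox5ap in both ctrl groups. The monocyte and macrophage sum was 153 and 175 TPM in ctrl pre-Baso and 877 and 324 TPM in ctrl basophils. It was 248.6 and 217 TPM in floxed out pre-Baso and 793 and 366 TPM in floxed out basophils. This sum ran with Alox5ap in ctrl pre-Baso and both floxed out groups, and against it in ctrl basophils. Between the populations, the neutrophil sum and Alox5ap were both higher in basophils in each genotype.

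Eosinophil markers were uneven. Their sum was 2665 TPM in ctrl basophil replicate 1, of which Prg2 gave 2354 TPM, and 35.4 TPM in replicate 2. It was 194 and 31.0 TPM in floxed out basophils and 15.8 to 100.8 TPM in pre-Baso. Of the 8 tested genes, 2 (Siglecf and Ccr3) were called higher in basophils of each genotype. Of all tested genes, 12.6% were called higher in ctrl and 6.79% in floxed out basophils. In each of the 4 groups the library with the higher eosinophil sum was also the library with the higher neutrophil sum. It was replicate 1 in every group. Between the 2 libraries of a group, Alox5ap ran with the eosinophil and neutrophil sums in floxed out cells and against them in ctrl cells. Alox15 was at 64.0 and 68.3 TPM in the ctrl basophil libraries with sums of 2665 and 35.4 TPM, and at 55.3 and 60.8 TPM in the floxed out basophil libraries with sums of 194 and 31.0 TPM. Hpgds was at 0.69 and 0.11 TPM in these ctrl basophil libraries. Lta4h was at 45.8 and 23.6 TPM there, while its main coding transcript was at 11.97 and 14.7 TPM. The part of eosinophils in these levels was not tested. Without the ctrl basophil library rich in eosinophil markers, Alox5ap was called in ctrl cells with a change of 0.73 (adjusted p = 0.0355, limma). Alox15 and Alox5 were then not called, with changes of 0.79 and -0.57 (adjusted p = 0.0654 and 0.115).

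The 11 basophil markers summed to 20916 to 35145 TPM in pre-Baso and 5345 to 11108 TPM in basophils. In ctrl cells 2 of the 11 were called higher in basophils and 4 lower (12.6% and 10.0% of all tested genes). In floxed out cells 2 were called higher and 3 lower (6.79% and 4.11% of all tested genes). The 9 mast cell markers summed to 419.6 to 474 TPM in pre-Baso and 240.2 to 307 TPM in basophils, most of it Cpa3 and Hdc, which basophils also express. The 9 megakaryocyte and platelet markers, led by Pf4 and Itgb3, summed to 2.46 to 35.6 TPM in pre-Baso and 9.004 to 18.2 TPM in basophils. The 8 B and plasma cell markers, led by Igkc and Cd79b, summed to 14.0 to 30.0 TPM and 23.6 to 142.6 TPM.

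**Figure D4:**
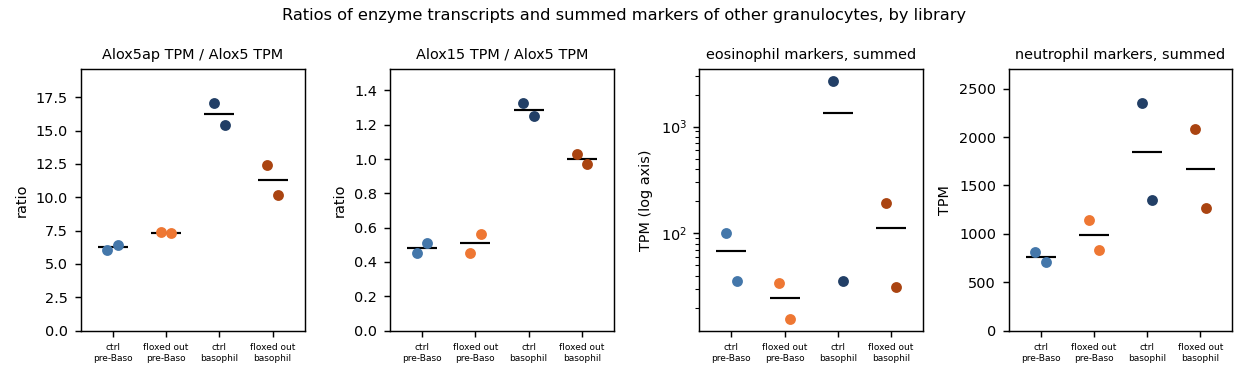
Ratio of Alox5ap to Alox5 TPM and of Alox15 to Alox5 TPM (linear axes from 0), summed TPM of 9 eosinophil markers (log axis) and of 10 neutrophil markers (linear axis), with 1 point per library and a bar at the group mean. The ratios are 6.01 to 7.36 and 0.45 to 0.56 in pre-Baso and higher in every basophil library, and the eosinophil sum is 2665 TPM in 1 ctrl basophil library and 35.4 TPM in the other.

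Around these 9 genes, a list of 61 others covered further phospholipases and acyl remodelling enzymes, lipoxygenases, synthases, breakdown enzymes, transporters and receptors, of which 29 were tested. Of the 29, 6 reached 1 TPM in basophil libraries only. They entered the test through the population in which they were high, so their tests are not read here. Of the remaining 23, 6 were called higher in ctrl basophils and 2 lower (12.6% and 10.0% of all tested genes). In floxed out cells 6 of the 23 were called higher and none lower (6.79% and 4.11% of all tested genes). No gene of the list was called in the 3 genotype contrasts or in the difference between them. Neutrophil and monocyte markers were also higher in basophils, and the part of these cells in the changes of the listed genes was not tested.

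Upstream of 5-lipoxygenase, Mboat7, which returns arachidonate to phosphatidylinositol, rose in both genotypes, by 0.94 ± 0.15 in ctrl cells and 0.88 ± 0.15 in floxed out cells (SE, adjusted p = 0.00420 and 0.0128, limma). Mgll, which can free arachidonic acid from a monoglyceride, was at 0.322 and 0.221 TPM in ctrl pre-Baso and 1.32 and 1.09 TPM in ctrl basophils, the only libraries in which it reached 1 TPM. Acsl4 and Lpcat3, which load arachidonate into phospholipids, had ctrl changes of 0.15 and -0.23 (adjusted p = 0.641 and 0.517).

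Beside 5-lipoxygenase, Cotl1, a small actin-binding protein that binds the enzyme, rose by 0.91 ± 0.14 in ctrl cells and 0.66 ± 0.14 in floxed out cells (SE, adjusted p = 0.00287 and 0.0226), and its transcript was at 95.1 to 205 TPM. Of the other lipoxygenases, Alox12e fell by 1.31 in ctrl cells (SE 0.23, adjusted p = 0.00614), from 9.52 and 12.6 TPM to 4.47 and 3.21 TPM. Alox8 had a ctrl change of 0.63 that missed the threshold (adjusted p = 0.0534), and Alox12 was at 0.27 TPM or less.

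Downstream, Cyp4f18, which oxidises leukotriene B4 in mouse neutrophils, rose by 1.11 ± 0.14 in ctrl cells and 0.88 ± 0.14 in floxed out cells (SE, adjusted p = 0.00156 and 0.0101). At 92.6 to 228 TPM it had the highest mean over all 8 libraries of the 61 genes, 155 TPM against 143 TPM for Cotl1, and it stood at 220 and 228 TPM in ctrl basophils. Abcc1, an exporter of leukotriene C4, rose by 0.79 ± 0.18 and 0.75 ± 0.18 (SE, adjusted p = 0.0175 and 0.0376). Ggt5, which converts leukotriene C4 to D4, was at 0.150 to 0.446 TPM in pre-Baso and 0.823 to 1.28 TPM in basophils. Mgst2, a microsomal enzyme able to make leukotriene C4, was at 0.357 to 0.716 TPM in pre-Baso, at 2.47 and 0.631 TPM in ctrl basophils and at 4.49 and 2.36 TPM in floxed out basophils. These are 2 of the genes that reached 1 TPM in basophil libraries only. Mgst3 was at 1.93 to 5.62 TPM.

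Among receptors, Ltb4r1, the leukotriene B4 receptor, was the most abundant at 21.5 to 43.4 TPM and fell by 0.61 in ctrl cells (SE 0.17, adjusted p = 0.0379). The prostaglandin E2 receptor genes Ptger3 and Ptger4 rose in both genotypes, Ptger3 by 0.65 ± 0.18 and 0.73 ± 0.18 (SE, adjusted p = 0.0368 and 0.0396) and Ptger4 by 1.33 ± 0.20 and 1.22 ± 0.20 (SE, adjusted p = 0.00283 and 0.0102). Ptgir, the prostacyclin receptor, was at 4.23 to 7.82 TPM. The prostaglandin D2 receptor genes Ptgdr and Ptgdr2 were listed at 0 in every library, and Cysltr1 was at 0.0615 TPM or less.

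Of the other synthases, Ptges3, Akr1b3 and Cbr1 were the most abundant, at 12.4 to 21.0, 9.24 to 14.8 and 3.59 to 6.44 TPM, and none was called. Ptgr2, Hpgd and Ptgr1 led the breakdown enzymes at up to 7.75, 4.41 and 0.30 TPM, and Abcc4 and Slco2a1 the other transporters at up to 1.497 and 0.04 TPM. Ptgr2 and Abcc4 were tested and not called.

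In ctrl cells the calls of Mboat7, Alox12e, Cotl1, Cyp4f18 and Ptger4 held in all 19 alternatives. Leaving out 1 library at a time ended the ctrl call of Abcc1 in 3 of 8 fits, of Ptger3 in 5 and of Ltb4r1 in 7. Among these fits the changes were 0.64 to 0.95 for Abcc1, 0.48 to 0.82 for Ptger3 and -0.79 to -0.42 for Ltb4r1. Each floxed out call was lost in 2 to 6 of the 8 fits.

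**Figure D5:**
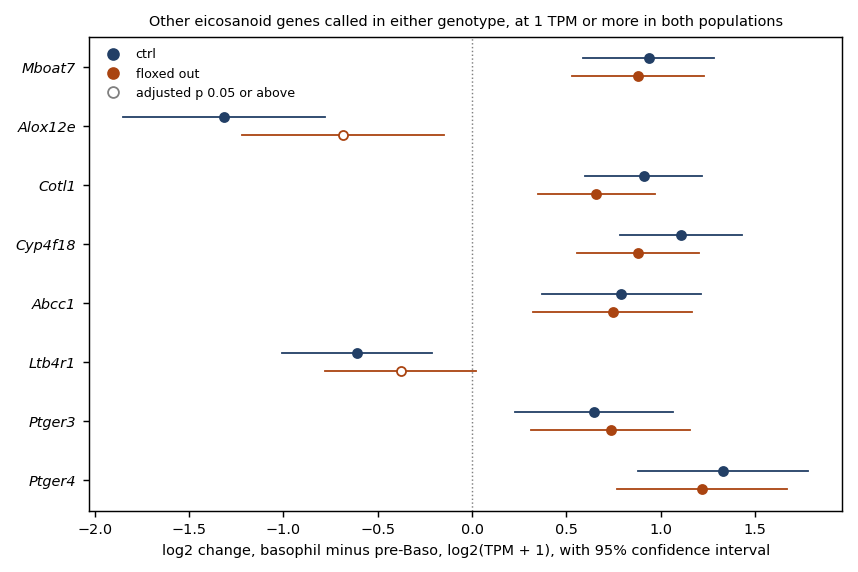
Log2 change from pre-Baso to basophil (horizontal axis, log2(TPM + 1) scale, 95% confidence intervals) of the 8 other eicosanoid genes that reached 1 TPM in both populations and were called in either genotype, ctrl in blue and floxed out in brown; open points have an adjusted p of 0.05 or above. Points of both genotypes lie on the same side of 0 for every gene shown, with Alox12e and Ltb4r1 on the left.

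Across the 8 libraries, Alox5ap and Alox15 varied together (Pearson r = 0.93 of log2(TPM + 1), a description) and Alox5 ran against both (r = -0.70 with Alox5ap and -0.63 with Alox15). The 8 libraries fall into 4 groups, and differences between groups enter these values. Among 4051 named protein-coding genes with a mean of at least 5 TPM, those most like Alox5ap were Btf3, Cd9 and Plek (r = 0.995, 0.994 and 0.992). Those most like Alox15 were Padi2, Mettl9 and Klf7 (r = 0.997, 0.997 and 0.996), those most like Alox5 were Srp68, Atp1b3 and Snrpb (r = 0.992, 0.975 and 0.973), and those most like Lta4h were Cdk2ap2, Sypl and Sf3b4 (r = 0.952, 0.944 and 0.942).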

How the data were processed

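Per the labels' protocols, RNA was extracted with TRIZol LS and a Direct-zol kit and made into libraries with a SMARTER kit for mRNA sequencing. Per the submitters' processing notes, the aligner was HISAT2 (version not given) and the build mm10. Per the file headers, StringTie 2.1.4 quantified annotated transcripts of Ensembl release 101 with no strand option. The authors deposited per-base coverage (signal), FPKM and TPM of each of 142699 transcripts, and these tables were used in other units than counts, with no read count behind them.

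TPM were summed per gene and tested as log2(TPM + 1) for the 12511 of 55487 genes that reached 1 TPM in 2 or more libraries. The fit (limma 3.58.1, R 4.3.3) gave each group its own mean and used all 8 libraries, with 4 residual degrees of freedom, a variance trend and Benjamini-Hochberg adjustment within each contrast. Changes near 1 TPM are understated on this scale. The script was tested on simulated data. Protein-coding genes took 18.7% to 22.4% of all TPM, so how many of the 9 genes reach 1 TPM depends on the scale. With protein-coding genes only, rescaled, 8 of the 9 were tested. Transcript types came from GENCODE M21. Assigned bases are coverage times length.

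The text names the 9 genes, called genes of the pathway list and the 3 most abundant of each role, the 2 most abundant of each marker list, and the 3 genes most correlated with each of the 4 most abundant members. The members and lists were chosen with earlier results of these data known. Genes named for their overlap, as receptors or synthases listed at 0, or as further mast cell and eosinophil markers were added after their values were seen.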

Additional observations from a re-analysis of the deposited data

How the results depend on the processing

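Over 19 alternatives (18 for the mean genotype effect and for the difference of the genotype effect), 0 of the 4 to 9 of these genes that each tested were called in these contrasts or in the genotype contrasts of either population. In ctrl cells 3 genes were called between the populations, 2 with protein-coding transcripts only, and 1 with no filter on low values and with the compared groups only. Some of these calls were also lost when a library was left out. With protein-coding genes only, rescaled, 4 were called, the fourth being Ltc4s, which is listed at 0 in ctrl basophils. Ltc4s entered that fit only through the libraries in which it was detected. With 0.264 and 0.350 kilobases of sequence in ctrl pre-Baso, its call is not read here. In floxed out cells 1 was called, 0 with no filter or the compared groups only, 2 with protein-coding genes only, FPKM, quantile normalization or assigned bases, and 0 to 2 without a library.

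Genes called between genotypes in pre-Baso were 8, and 23 with no filter, 5 with protein-coding genes only, 3 with the compared groups only, and 5 to 9 without a library. In basophils they were 7, and 16 at a pseudocount of 0.1, 18 with no filter, 18 with protein-coding genes only, 11 with protein-coding transcripts only, 19 by assigned bases, 4 with the compared groups only and 6 to 17 without a library. For the mean over both they were 11, and 19 at a pseudocount of 0.1, 5 with no filter, 17 at a filter of TPM at least 5 and 7 to 11 without a library. In ctrl cells 2832 genes were called between populations, and 1516 with no filter, 1757 with protein-coding transcripts only and 1397 to 2651 without a library. In floxed out cells they were 1363, and 298 with no filter, 741 with protein-coding transcripts only, 2437 by assigned bases, 562 with the compared groups only, and 19 (without floxed out pre-Baso replicate 1) to 1237 without a library. The difference of the genotype effect had 0 genes, and 2 at a pseudocount of 0.1, 2 with protein-coding genes only, 1 by assigned bases and 0 to 2 without a library. With more or fewer genes tested the adjustment changes by construction. The cause was not tested otherwise.

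Same-numbered libraries deviated with correlations of -0.05 to 0.20 between groups, so the numbers were not taken as pairs. The neutrophil and eosinophil marker sums were nonetheless higher in replicate 1 of every group. With the replicate block, 3 of the 5 tested genes were called in ctrl cells, 1 in floxed out cells and 0 elsewhere, with 8, 8, 7, 2778, 1290 and 0 genes called in the 6 contrasts in the order above.

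Uncalled differences changed sign in 28 cases. Lta4h turned from -0.25 to 0.22 (protein-coding transcripts only) and 0.063 (assigned bases) for genotype in basophils, from -0.18 to 0.017 and 0.0022 for the mean, and from -0.13 to 0.41 and 0.12 for the difference. The mean genotype effect of Alox5 turned from -0.06 to 0.0051 (FPKM) and 0.019 (assigned bases), and that of Pla2g4a from 0.01 to -0.00019 (pseudocount of 5).

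Leaving out libraries gave ranges of -0.66 to 0.14 (Pla2g4a, genotype in pre-Baso), -0.24 to 0.11 (Alox5ap, genotype in pre-Baso), -0.45 to 0.21 (Lta4h, genotype in pre-Baso), -0.72 to 0.21 (Lta4h, genotype in basophils), -0.19 to 0.21 (Pla2g4a, mean), -0.12 to 0.0011 (Alox5, mean), -0.42 to 0.048 (Lta4h, mean), -0.53 to 0.26 (Pla2g4a, ctrl populations), -0.50 to 0.43 (Lta4h, ctrl populations), -0.60 to 0.33 (Lta4h, difference) and -0.18 to 0.24 (Alox15, difference). With 2 libraries per group the stated intervals are wide, and they are not adjusted for the number of genes tested. A gene that was not called is not shown to be unchanged, and the 4 genes near 0 are limited by depth. A group left with 1 library is assumed to vary like the others.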
